A study of Mus musculus with 12 samples.

Results

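Dendritic cells (DC) that had been exposed to poly(I:C) for 12 h were set against DC exposed for 6 h, to find which transcripts were newly gained or newly lost in that interval. The comparison was made of the 4 arrays titled for 12 h and 6 h, 2 at each time, out of 12 arrays in the series. An array at 12 h was paired with the array at 6 h that carries the same replicate number. All 45037 non-control probe sets of the Affymetrix Mouse 430 2.0 array were considered, on the scale log2(signal + 16), where the signal is the MAS5.0 intensity of a probe set.

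Each of the experiments 1 and 2 used the bone marrow of 1 C57BL/6 mouse, grown for 6 days with GM-CSF at 10 ng/ml per the labels and enriched for CD11c, the integrin that marks DC. The 12 h group was treated with poly(I:C) for 12 h and the 6 h group for 6 h, in both cases at 2.5 μg/ml by the labels, and the text of the study's methods gives other concentrations of both reagents. The labels give the age of the animals as 8 to 10 weeks in one field and as 3 to 4 months in another. The remaining 8 arrays, at 0, 1, 3 and 24 h, entered the fit to estimate the spread and to show where a transcript stood at other times, as before poly(I:C). They also entered the mean signal that decided which probe sets were tested and which probe set represented a gene. No array holds cells kept for 6 or 12 h without poly(I:C), so an effect of the reagent and an effect of time in culture cannot be told apart. With n = 2 arrays at each time, 1 for each mouse, that number sets how precise the values below can be. The experiment was a term of the fit, which removes a constant difference between the 2 cultures. A p-value thus reflects how unlike the changes over time were in the 2 cultures, estimated over all times together. In such bulk samples fewer cells of a type and less RNA per cell cannot be told apart either, and because every array was scaled to the same trimmed mean, all values are relative to the other transcripts of that array.

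Poly(I:C) is a synthetic double-stranded RNA that stands in for viral RNA. It is sensed by Toll-like receptor 3 in endosomes and by RIG-I-like receptors in the cytosol, which switch on type I interferon and the inflammatory cytokines within the first hours. Secreted interferon then acts back on the cells through its receptor, so that transcripts of a later wave follow the early ones. DC that mature in this way are known to display more co-stimulatory molecules and peptide-loaded MHC, to take up less antigen, and to leave the cell cycle.

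Between 6 and 12 h more transcripts fell than rose. Of 22519 probe sets tested with limma, 137 were higher at 12 h (0.608%) and 254 were lower (1.13%) at an adjusted p under 0.05, and at an unadjusted p under 0.05 the counts were 1269 and 2521. At least a 2-fold difference was seen for 90 of the higher and 194 of the lower probe sets. All 391 called probe sets moved the same way in both experiments. The test favours this, since unlike differences in the 2 experiments add to the spread. The difference was at least 2-fold in each experiment for 62 of the higher and 146 of the lower ones. For 387 of the 391 the signals at 12 h did not overlap those at 6 h, which also held for 36.2% of all probe sets tested. With 1 probe set per gene, 87 of 10985 genes were higher (0.792%) and 154 were lower (1.4%), and the median gene moved by -0.07 on the log2 scale. At an unadjusted p under 0.05 in limma 740 of the 10985 genes were higher and 1340 lower. The unadjusted counts of the gene lists below are to be read beside these. Whether called or not, 4434 of the 10985 genes were lower in both experiments and 3179 were higher in both. Of the 241 called genes 130 had more than 1 tested probe set, and in 46 of these another probe set was called the same way, while in none was a probe set called the opposite way. In 117 of the 130 every tested probe set lay on the same side of 0, and in the rest they did not all do so. The plot of both experiments shows the called genes away from the origin in the same 2 quadrants.

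**Figure D1:**
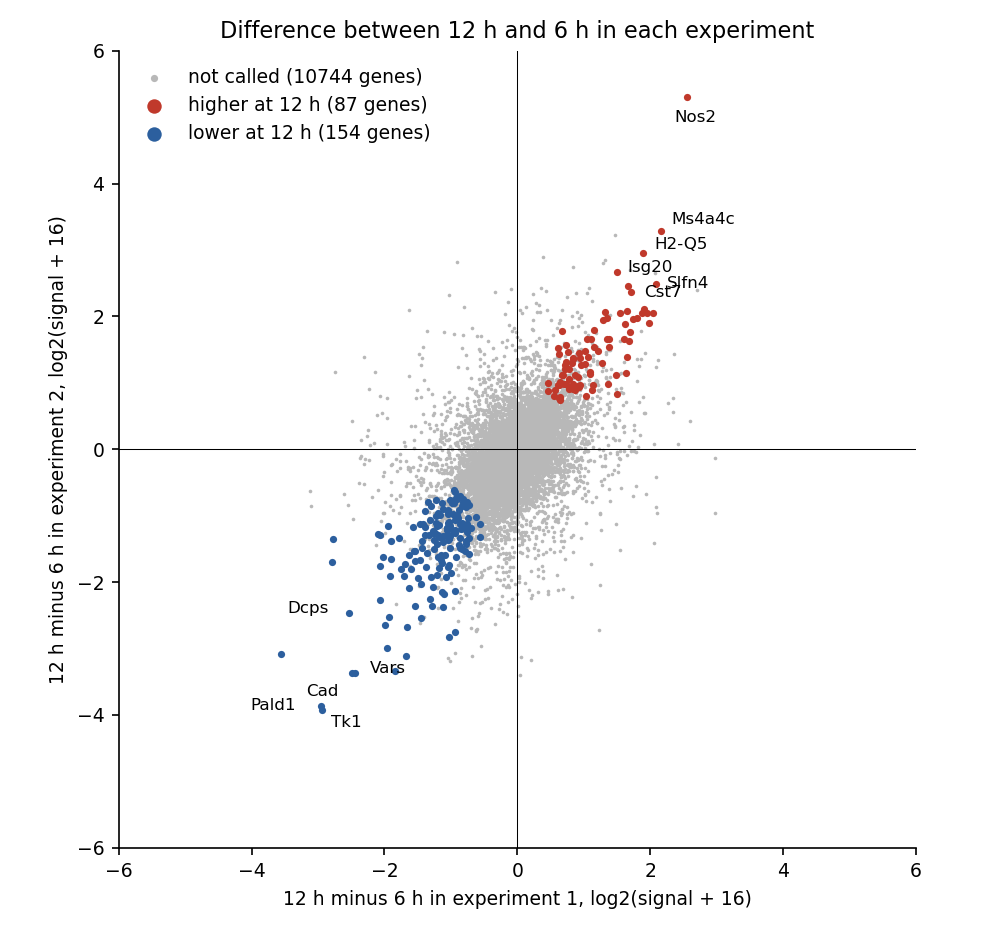
Difference between 12 h and 6 h for each of 10985 genes on the log2(signal + 16) scale, in experiment 1 (horizontal axis) and in experiment 2 (vertical axis). Each point is 1 gene, red where called higher (87), blue where called lower (154) and grey where not called. All called genes lie in the quadrants where both experiments moved the same way, which the test favours. Nos2 is farthest out among the rises, at 2.55 in experiment 1 and 5.30 in experiment 2.

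These calls depend strongly on single arrays. Without the 6 h array of experiment 2 no probe set was called (1832 had an unadjusted p under 0.05), without that of experiment 1 there were 2 higher and 2 lower, without the 12 h array of experiment 1 there were 31 higher and 88 lower, and without that of experiment 2 none higher and 8 lower. Leaving out either 24 h array had the opposite effect and gave 770 or 769 higher and 1722 or 1739 lower probe sets. Without the term for the experiment none was called, with 2053 at an unadjusted p under 0.05. Each of the 12 arrays, left out alone, moved at least one of the counts by over 1.5 times, and without the 0, 1 or 3 h arrays there were 26 to 35 higher and 30 to 55 lower probe sets.

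**Figure D2:**
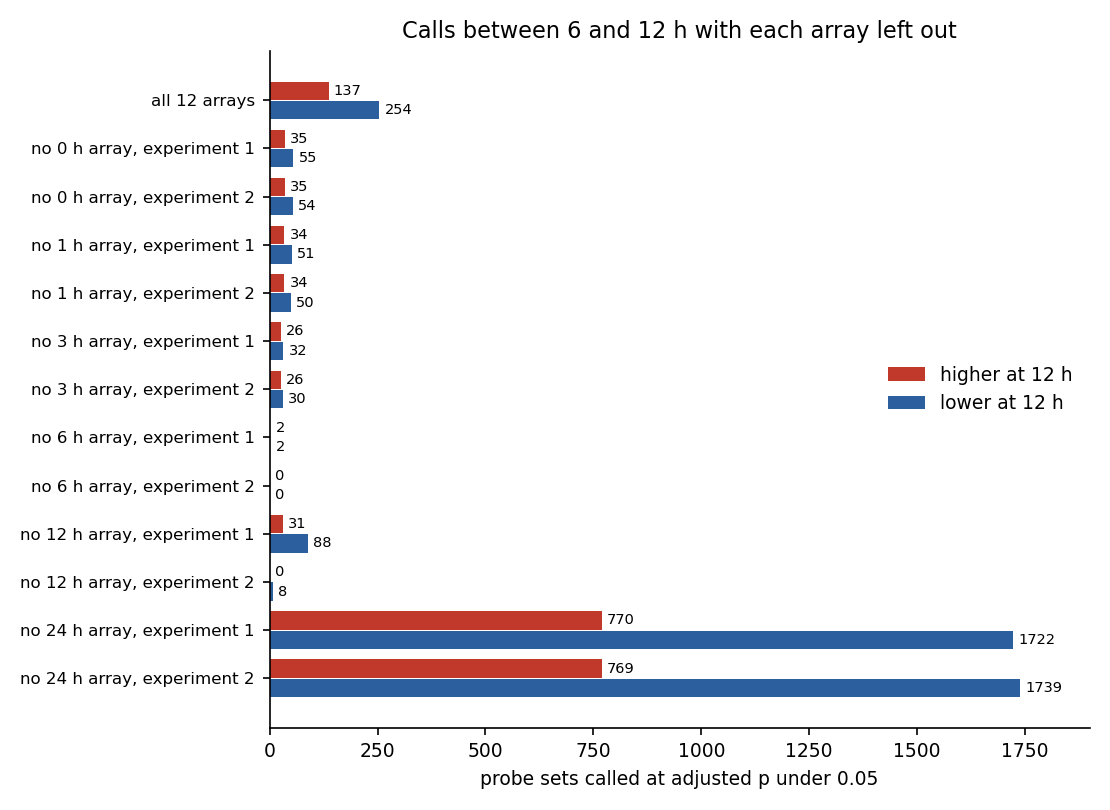
Number of probe sets (horizontal axis) called higher (red) and lower (blue) in the 12 h group against the 6 h group, with all 12 arrays (top) and with each array left out in turn. The counts reach 770 and 1739 without a 24 h array and fall to 0 and 0 when the 6 h array of experiment 2 is left out.

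The called genes were put into classes by adding what the same genes did against 0 h. A gene was newly gained if it was higher at 12 h than at 6 h, was not called at 6 h against 0 h and was higher at 12 h than at 0 h, and newly lost if the same held with lower. A further rise or further fall is a gene that was already called in the same direction at 6 h. At 6 h against 0 h 4.29% of genes were called higher and 2.32% lower, and at 12 h against 0 h 10.7% were higher and 20.6% lower. These comparisons share arrays with the step, so the classes are a description. No called gene turned back against its earlier direction, though 2 of the called probe sets turned back up. Newly gained genes numbered 38, further rises 49, newly lost genes 116 and further falls 38. Most losses were thus new at 12 h by this rule, while most gains built on a rise already present at 6 h. "New" refers to the threshold only: at 6 h 37 of the 38 newly gained and 109 of the 116 newly lost genes were within 2-fold of 0 h.

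The newly gained genes had a median log2 difference from 0 h of 0.28 at 6 h, 1.36 at 12 h and 1.78 at 24 h, and all 38 were still above 0 h at 24 h. For the newly lost genes the same medians were -0.47, -1.74 and -1.41, and 114 of 116 were still below 0 h at 24 h. Between 12 and 24 h 15 of the newly lost genes were called higher and 1 lower, and 8 of the newly gained genes were called higher and 1 lower. The 12 h arrays that defined the classes also enter this comparison, so the choice of genes favours a return toward 0 h. The share of all genes called between 12 and 24 h is not given here, so a recovery cannot be read from these counts. Further rises stood at 1.48, 2.73 and 2.81, and further falls at -1.14, -2.35 and -1.95.

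**Figure D3:**
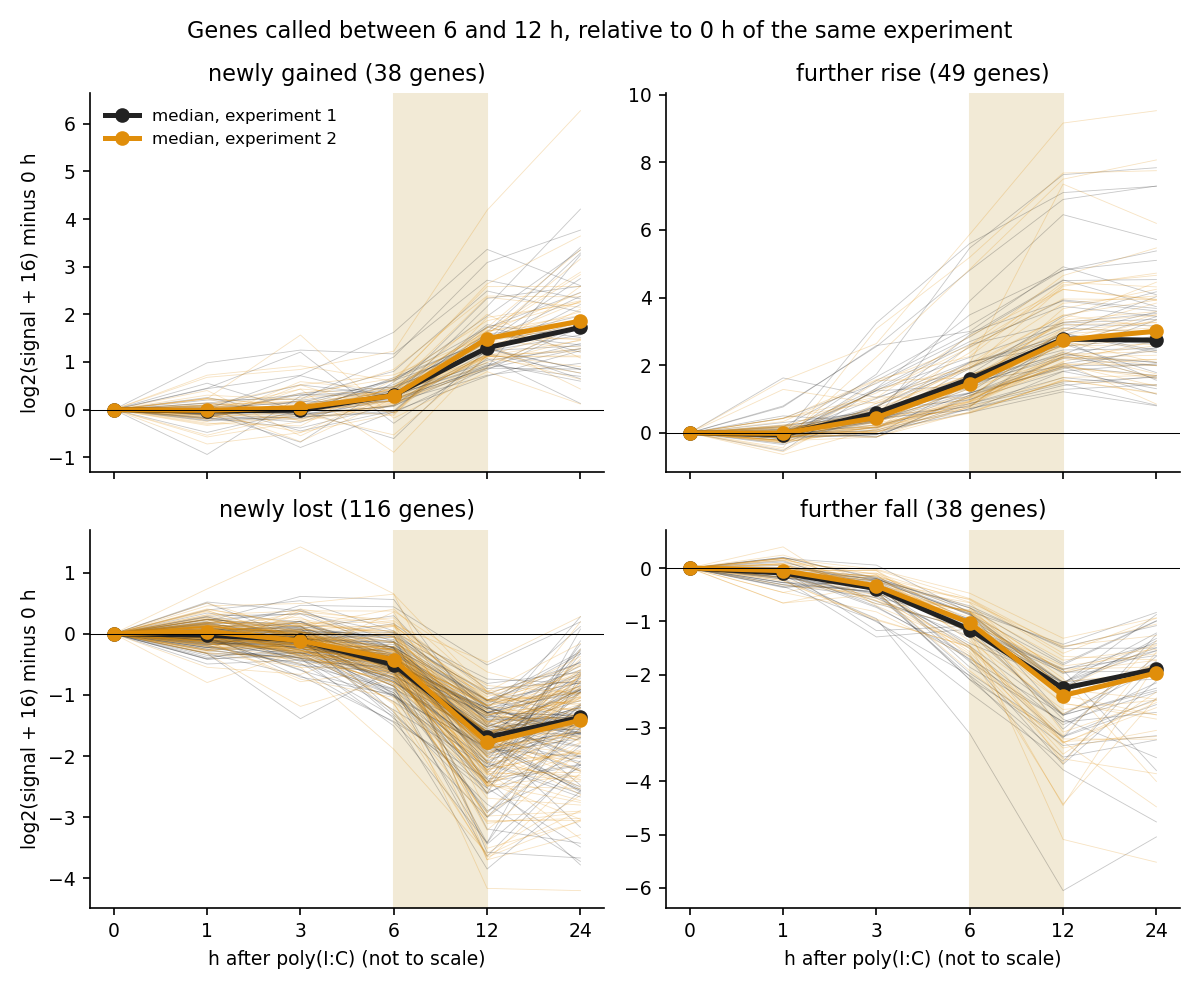
Log2(signal + 16) minus the 0 h value of the same experiment against time after poly(I:C) (0, 1, 3, 6, 12 and 24 h, spaced evenly), for newly gained (38), further rise (49), newly lost (116) and further fall (38) genes. Thin lines are single genes, thick lines with points are the medians of experiment 1 (black) and experiment 2 (orange), and the shaded band is the interval from 6 to 12 h.

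In what follows, a pair of signals gives experiment 1 and then experiment 2, and each difference is that fitted for 12 h minus 6 h on the log2(signal + 16) scale with its standard error (SE). Values of the single arrays for 12 of the genes described are plotted together.

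**Figure D4:**
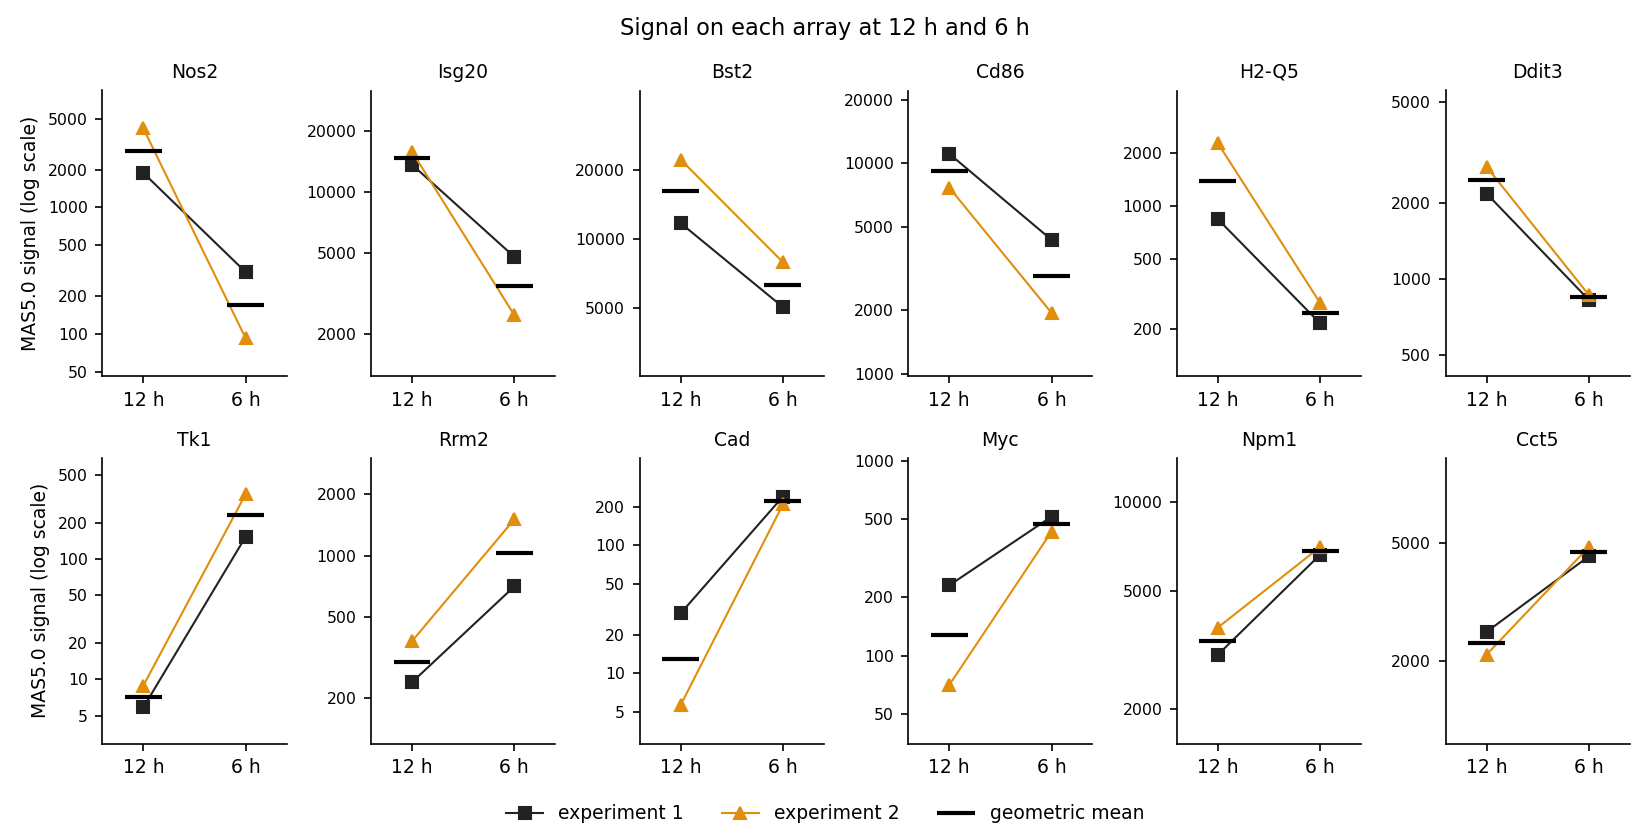
MAS5.0 signal on a log axis on the 12 h arrays (left in each panel) and the 6 h arrays (right) for 6 genes called higher and 6 called lower. Black squares are experiment 1, orange triangles experiment 2, lines join arrays of the same experiment and bars are geometric means of 2 arrays. In every panel both 12 h signals lie on the same side of both 6 h signals.

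The largest rise was that of Nos2, the inducible nitric oxide synthase, which makes nitric oxide from arginine. Its signal was 1879.5 and 4236 at 12 h, against 308 and 91.9 at 6 h, with 5.66 and 9.95 at 0 h. The arrays did not overlap, and the fitted difference was 3.93 ± 0.54 (adjusted p = 0.0139). It had 1122 and 1884 at 24 h, a difference of -0.95 from 12 h that was not called. Experiment 2 started lower at 6 h and ended higher at 12 h, so that the size of the rise was 2.55 in experiment 1 and 5.30 in experiment 2. Among 21 tested genes for amino acid transporters and the arginine and tryptophan enzymes, Nos2 was the only one called. The cystine transporter Slc7a11 had 6627 and 8553 at 12 h, against 5108 and 4156 at 6 h (adjusted p = 0.0966) and the glutamine transporter Slc38a1 had 609 and 515 at 12 h, against 1270.4 and 1447 at 6 h (adjusted p = 0.0638), neither of which passed.

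Interferon-responsive genes were already high at 6 h and a few went higher. Of 46 tested members, 45 were called higher at 6 h against 0 h and all 46 at 12 h, with median log2 differences of 4.51 at 12 h and 3.86 at 6 h. In the step itself 4 rose, none fell (20 rose and none fell at an unadjusted p under 0.05), and the median was 0.43, with 0.31 in experiment 1 and 0.56 in experiment 2. Isg20, an exonuclease that degrades viral RNA, had 13606 and 15754 at 12 h, against 4781 and 2471 at 6 h, with a difference of 2.09 ± 0.37 (adjusted p = 0.0301). Bst2, or tetherin, which holds budding virions at the cell surface, had 11708 and 22150.0 at 12 h, against 5042 and 7909.5 at 6 h. Both 12 h signals of Bst2 were above both 6 h signals, and the difference was 1.35 ± 0.17 (adjusted p = 0.0122). Ube2l6, the conjugating enzyme that transfers ISG15 to its targets, rose by 1.11 ± 0.19. Ifitm3, which blocks virus entry from endosomes, rose by 0.73 ± 0.16. Iigp1, an interferon-inducible GTPase, had 19712 and 7965 at 12 h, against 10414 and 2186 at 6 h and did not pass (adjusted p = 0.0659). Outside the list, Uba7, the activating enzyme for ISG15, rose by 1.16 ± 0.23, the helicase Mov10 by 1.46 ± 0.26 and Gbp8, a guanylate-binding protein, by 1.69 ± 0.34.

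The promoters of 2 of the genes that rose further are shown because each carries the core of the interferon-stimulated response element (ISRE), a DNA site known from the promoters of interferon-induced genes. The sequences are from RefSeq on build GRCm38.p6, from 250 bases before to 50 bases after the annotated start, in the direction of the gene, with the core (GAAA, any 2 bases and again GAAA, or the reverse complement of this) in capitals. In Bst2 (chr8:71537423-71537722, minus strand) overlapping matches began 130 and 124 bases before the start, and in Fcgr4 (chr1:171018676-171018975, plus strand) a match began 73 bases before it.
Bst2: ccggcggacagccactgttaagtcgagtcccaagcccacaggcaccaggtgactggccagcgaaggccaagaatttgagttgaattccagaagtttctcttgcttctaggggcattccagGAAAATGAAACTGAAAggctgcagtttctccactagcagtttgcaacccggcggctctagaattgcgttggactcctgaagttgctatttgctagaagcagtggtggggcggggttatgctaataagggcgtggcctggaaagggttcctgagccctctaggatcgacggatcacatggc
Fcgr4: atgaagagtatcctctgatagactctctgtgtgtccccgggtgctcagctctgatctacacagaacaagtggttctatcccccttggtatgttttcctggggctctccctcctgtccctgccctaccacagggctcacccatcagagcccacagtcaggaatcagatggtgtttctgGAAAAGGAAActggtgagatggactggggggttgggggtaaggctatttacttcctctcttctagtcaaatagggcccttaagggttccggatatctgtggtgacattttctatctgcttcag
Promoters were matched for 195 of the 241 called genes, taking the first one listed for a gene. The ISRE core was found on either strand in 5 of 39 promoters of further rises (12.8%), in 1 of 31 of newly gained genes (3.23%) and in 5 of 125 of genes that fell (4.0%). It was in 3.49% of all 27025 promoters of the same length and in 3.15% of the 8963 promoters of genes tested.

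Several transcripts with low signals at 0 h rose too. Ms4a4c, which encodes a tetraspanning membrane protein of the MS4A family, had 16008 and 15944 at 12 h, against 3547 and 1615 at 6 h, with 64.6 and 11.9 at 0 h, and its difference of 2.73 ± 0.39 was the next largest after Nos2 (adjusted p = 0.0148). In the same family, Ms4a6c rose by 1.86 ± 0.23 and Ms4a6d by 1.10 ± 0.23. Of 12 Ms4a genes listed 7 were tested. All 7 were higher at 12 h in both experiments, where 3179 of all 10985 genes were, though only these 3 were called. The signal filter averages all 12 arrays, so a gene can pass it through its later signals. Ms4a4b, among the 7, had 1.71 and 1.41 at 0 h and 324 and 170 at 12 h. The count of 7 is therefore a description only. That family and the SLAM family were picked after their values had been seen. Slfn4, a Schlafen gene, had 13948 and 8311 at 12 h, against 3253 and 1463 at 6 h and a difference of 2.29 ± 0.39. Slfn4 had 18387 and 8718 at 24 h and Ms4a4c had 18462 and 20548 at 24 h, all far above their 0 h signals.

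Of the receptors for immunoglobulin G, Fcgr4 and Fcgr1 rose. Fcgr4, the activating receptor that binds IgG2, had 1433 and 3314 at 12 h, against 439 and 591 at 6 h (difference 2.06 ± 0.31, adjusted p = 0.0178), and Fcgr1, the high-affinity receptor, had 12032 and 8788 at 12 h, against 7235 and 3537 at 6 h (difference 1.02 ± 0.20, adjusted p = 0.0369). They were the 2 called genes of 30 endocytic and phagocytic receptors tested, whose median was 0.11 under the main scaling and -0.05 after quantile normalization. The other members went both ways. Clec10a, a galactose-binding lectin, had 93.2 and 117 at 12 h, against 267 and 219 at 6 h (adjusted p = 0.0864), and Ly75, the DC endocytic receptor DEC-205, had 1577 and 879.8 at 12 h, against 679 and 499.8 at 6 h (adjusted p = 0.091).

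Maturation and co-stimulatory genes rose where they were called. Of 22 tested members 3 rose, none fell, and the median difference was 0.55. In the fit and in experiment 2 (0.71) this was the highest of the 34 functional lists, while in experiment 1 (0.44) the circadian clock (0.59), inflammatory cytokines (0.57) and chemokine receptors (0.47) were higher. Cd86, a ligand of CD28 on T cells, had 11105 and 7668 at 12 h, against 4327 and 1944 at 6 h, with a difference of 1.66 ± 0.23 (adjusted p = 0.0139), and both of its tested probe sets were called. Cd200, an inhibitory ligand for myeloid cells, had 2703 and 4053 at 12 h, against 671 and 1071 at 6 h and was newly gained, with 304 and 778 at 0 h (difference 1.94 ± 0.32, adjusted p = 0.0239). Slamf1, a co-receptor that binds itself on neighbouring cells, was newly gained as well, by 1.30 ± 0.26. Among the 9 genes of the SLAM family, Slamf7, Slamf8 and Slamf9 were called too, with differences of 1.47 ± 0.25, 0.93 ± 0.18 and 1.13 ± 0.17. Other hallmarks of maturation did not pass. Cd40 had 14593 and 6184 at 12 h, against 8303 and 3009.7 at 6 h (adjusted p = 0.281), Cd80 had 2010.2 and 1105 at 12 h, against 1668 and 601 at 6 h (adjusted p = 0.507) and Cd83 had 3415 and 794 at 12 h, against 2232 and 624 at 6 h (adjusted p = 0.462). In these 3 genes the experiments differed more from each other than 12 h did from 6 h, and the signals of the times overlapped in each.

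Chemokine receptors showed a fall of Ccr2 and no called rise. Ccr2, the receptor for CCL2 that brings monocytes out of the marrow, had 1144 and 674 at 12 h, against 1939 and 1626 at 6 h, with 4353 and 2885 at 0 h, a further fall with differences of -0.75 in experiment 1 and -1.25 in experiment 2 (adjusted p = 0.033). Ccr7, the receptor that guides mature DC to lymph nodes, had 7854 and 625 at 12 h, against 2185 and 375 at 6 h, a difference of 1.28 ± 0.53 that was not called (adjusted p = 0.258). Its signal was more than an order of magnitude higher in experiment 1 than in experiment 2 at 12 h. Gpr183, a receptor for oxysterols that positions DC in the spleen, fell by 1.46 ± 0.30 and was newly lost.

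In antigen presentation, genes for the loading and cleavage of peptides rose. Of 16 tested MHC class I pathway genes 3 rose and none fell (11 and 0 at an unadjusted p under 0.05), with a median of 0.41. Tapbp, or tapasin, which bridges class I molecules to the peptide transporter, had 25685 and 35009 at 12 h, against 16459.8 and 17272 at 6 h (difference 0.83 ± 0.14). The immunoproteasome subunits Psmb9 and Psmb10 rose by 0.84 ± 0.16 and 0.86 ± 0.16, while the 35 tested subunits of the constitutive proteasome had no call (3 higher and 8 lower at an unadjusted p under 0.05) and a median of -0.10, and -0.19 after quantile normalization. The peptide transporter genes had 10107 and 6237 at 12 h, against 7407 and 5044 at 6 h for Tap1 and 2999 and 2830.2 at 12 h, against 1951 and 2108 at 6 h for Tap2, without passing (adjusted p = 0.236 and 0.185). H2-Q5, a class I gene of the Q region, was the largest newly gained gene, at 841 and 2283 at 12 h, against 214 and 279 at 6 h, and it went on to 3528 and 9774 at 24 h (12 h minus 6 h 2.43 ± 0.48, adjusted p = 0.038). Class I genes of that region are near-identical copies and a probe set may bind more than 1 of them, so the name is uncertain. In the MHC class II pathway 1 of 12 tested genes rose, H2-Oa, a chain of the DO molecule that restrains peptide exchange, at 1372 and 907 at 12 h, against 556 and 360.2 at 6 h (difference 1.29 ± 0.21).

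Lysosomal genes were among those newly gained. Of 36 tested members 3 rose, all newly gained, and none fell (12 higher and 2 lower at an unadjusted p under 0.05). The median was 0.26 under the main scaling and 0.11 after quantile normalization. In both experiments 27 of 36 were higher, where 3179 of all 10985 genes were. Lamp2, a major glycoprotein of the lysosomal membrane, had 22338 and 32068 at 12 h, against 15153 and 18310.2 at 6 h (difference 0.68 ± 0.15), and 3 of its 4 tested probe sets were called. Gla, the lysosomal alpha-galactosidase, rose by 0.86 ± 0.17 and Atp6v1d, a subunit of the proton pump, by 0.79 ± 0.15. Cst7, which encodes cystatin F, an inhibitor of lysosomal cysteine proteases, had 8112 and 4732 at 12 h, against 2454 and 907 at 6 h (difference 2.04 ± 0.19, adjusted p = 0.00773). Both differences of Cst7 were large beside the spread, at 1.72 in experiment 1 and 2.36 in experiment 2.

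Ptges, Il18bp, Htra4, Lgals9 and Fstl1, named here after their values had been seen, were called higher. Ptges, the inducible prostaglandin E synthase, had 1816 and 2048 at 12 h, against 429.8 and 484 at 6 h, the smallest adjusted p of all calls along with Cst7 (0.00773), and a difference of 2.04 ± 0.19. Il18bp, which encodes the secreted antagonist of interleukin-18, rose by 1.89 ± 0.22, Htra4, a secreted serine protease, by 2.02 ± 0.35, and Lgals9, a galectin, by 0.67 ± 0.14. Fstl1, a secreted glycoprotein of the follistatin family, was newly gained at 562 and 1305 at 12 h, against 133 and 301 at 6 h (difference 2.01 ± 0.22), with 1 of 2 probe sets called. The classical cytokines were not called: of 13 tested, none rose or fell (3 higher and 1 lower at an unadjusted p under 0.05 in limma), and the median was 0.51 under the main scaling and 0.32 after quantile normalization. Il12b, a subunit of interleukin-12 and interleukin-23, had 3531 and 1923 at 12 h, against 1699.7 and 683 at 6 h (adjusted p = 0.344). Il6 had 6798 and 878 at 12 h, against 4463 and 1028 at 6 h and Tnf had 7155 and 4239 at 12 h, against 9257 and 8454 at 6 h, with adjusted p of 0.868 and 0.177. Ifnb1, which encodes interferon beta, had 5289.8 and 3322 at 12 h, against 4588 and 1875 at 6 h and then 86.1 and 842 at 24 h. The signals of Il6 and Ifnb1 overlapped between the times, while both 12 h signals of Il12b were above, and both of Tnf below, those at 6 h.

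Of 17 chemokines tested none was called (3 higher and 1 lower at an unadjusted p under 0.05). Cxcl10, a ligand of CXCR3, had 27949.6 and 36109.5 at 12 h, against 23464 and 24529.8 at 6 h, Ccl5, which attracts T cells, had 32268 and 45439.7 at 12 h, against 24188 and 24146 at 6 h, and Ccl22, which draws CCR4-bearing T cells, had 24283 and 18784 at 12 h, against 17637 and 11255 at 6 h (adjusted p = 0.702, 0.389 and 0.0691). Cxcl2, a neutrophil attractant, had 6469 and 798 at 12 h, against 10435 and 6998 at 6 h, the lowest difference in the list at -1.90 ± 0.52 (adjusted p = 0.0975), with -0.69 in experiment 1 and -3.11 in experiment 2. The NF-kB pathway likewise held no call among 25 genes (4 higher and 2 lower at an unadjusted p under 0.05), with a median of 0.20, and 0.13 after quantile normalization.

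Ddit3 and Nupr1 were newly gained. Ddit3, which encodes CHOP, a transcription factor of the integrated stress response, had 2172 and 2768 at 12 h, against 826 and 864 at 6 h, with 546 and 924 at 0 h and 5722 and 8416 at 24 h (12 h minus 6 h 1.52 ± 0.22, adjusted p = 0.0172). Nupr1, a small nuclear protein induced by stress, had 2073 and 2640.1 at 12 h, against 699 and 627 at 6 h (difference 1.80 ± 0.37). Of the 2 tested probe sets of each of these genes 1 was called. In the unfolded protein response list of 24 tested genes Ddit3 rose, Herpud1, a component of endoplasmic reticulum degradation, fell to 573 and 753 at 12 h, against 1202 and 1469 at 6 h, and 12 genes lay on either side of 0. Hif1a, the oxygen-regulated factor that drives glycolytic genes, had 21999 and 32047 at 12 h, against 14335 and 16299.8 at 6 h (difference 0.80 ± 0.14), with 3 of 4 probe sets called. It was the called member of 24 glycolysis genes and HIF1A targets tested, whose median was 0.40 under the main scaling and 0.21 after quantile normalization. Hk1, a hexokinase, had 2321 and 4213 at 12 h, against 1381 and 2079.7 at 6 h and missed the threshold (adjusted p = 0.0506). Hilpda, a lipid droplet protein known as a HIF1A target in other cells, was newly gained by 1.52 ± 0.26, and Mgll, monoacylglycerol lipase, by 1.07 ± 0.22. Mlkl, the pore-forming effector of necroptosis, rose by 0.84 ± 0.17, the called gene among 25 of the BCL2 family and caspases.

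Other newly gained genes were of mixed function. Gp6, a collagen receptor best known on platelets, had 193 and 247 at 12 h, against 40.7 and 47.5 at 6 h and 70.3 and 102 at 0 h. Flt4, the receptor VEGFR3, had 451 and 507 at 12 h, against 129 and 153 at 6 h, and Rnf225, which encodes a RING finger protein, had 1284 and 704 at 12 h, against 373 and 169.6 at 6 h. Their differences were 1.97 ± 0.32, 1.66 ± 0.34 and 1.85 ± 0.31, and of the 2 tested probe sets of Flt4 and of Rnf225 only 1 each was called. Platelet markers carried signal at both times and none tested was called, as given with the marker lists at the end.

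Enzymes that supply DNA synthesis were among the genes that fell. Tk1, thymidine kinase, had 5.85 and 8.88 at 12 h, against 154 and 347 at 6 h (difference -3.41 ± 0.42, adjusted p = 0.0122), and both 12 h signals were below the added constant of 16, so its size depends on that constant. Rrm1 and Rrm2 encode the subunits of ribonucleotide reductase, which makes deoxyribonucleotides, and they fell by 1.08 ± 0.21 and 1.72 ± 0.23 on the log2 scale. Rrm2 had 239 and 380.5 at 12 h, against 706 and 1507 at 6 h, and all 3 of its probe sets were called. Cad, the enzyme that starts pyrimidine synthesis, had 29.4 and 5.66 at 12 h, against 239.6 and 208 at 6 h (difference -2.93 ± 0.46, adjusted p = 0.0206), with 1 of its 2 probe sets called. The whole set of 9 genes of de novo purine and pyrimidine synthesis was collected after the fall of Cad had been seen. Of these 4 fell, Cad, Umps, Atic and Paics, and none rose. In both experiments 7 were lower, where 4434 of all 10985 genes were. Ppat, the first enzyme of the purine branch, had 133 and 150.5 at 12 h, against 102 and 199 at 6 h and was not called (adjusted p = 0.991). The folate enzymes Mthfd1 and Shmt2, which provide carbon units for purines and thymidylate, fell by 2.06 ± 0.36 and 1.25 ± 0.23, and Srm, spermidine synthase, fell by 1.74 ± 0.23.

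Genes of DNA replication fell too. Of 44 tested genes for DNA replication and nucleotide supply 8 fell and none rose (23 and 0 at an unadjusted p under 0.05). In both experiments 32 were lower, where 4434 of all 10985 genes were, and the median was -0.73 against -0.07 over all genes. The medians were -0.69 in experiment 1 and -0.78 in experiment 2. Mcm5, a subunit of the replicative helicase, had 439 and 587 at 12 h, against 1043 and 1188 at 6 h (difference -1.11 ± 0.18) and Pola1, the catalytic subunit of DNA polymerase alpha, had 73.2 and 172 at 12 h, against 292 and 459 at 6 h (difference -1.56 ± 0.27). Pold2, Mcm3 and Orc2, of the elongating polymerase, the helicase and the origin recognition complex, were the others called. Of 8 called members 6 were newly lost, and Mcm3 and Orc2 had been called lower at 6 h already.

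Falls were also found among mitotic genes. Of 32 tested 5 fell, none rose (11 lower and 2 higher at an unadjusted p under 0.05), and all 5 were newly lost, with a list median of -0.58. At 6 h the median of the same list against 0 h was -0.08, and at 12 h it was -0.80. Kif23, a kinesin of the midbody, had 84.9 and 33.4 at 12 h, against 305 and 412 at 6 h (difference -2.39 ± 0.33) and its partner Racgap1 had 95.4 and 177 at 12 h, against 331 and 567 at 6 h (difference -1.62 ± 0.28), both needed to complete cell division. Ccna2, cyclin A2, had 182 and 336 at 12 h, against 444 and 925 at 6 h, Top2a, the topoisomerase that untangles replicated DNA, had 248 and 359.8 at 12 h, against 699.6 and 1037 at 6 h, and Birc5, or survivin, had 135 and 227 at 12 h, against 349 and 556 at 6 h. Their differences were -1.32 ± 0.26, -1.46 ± 0.30 and -1.25 ± 0.23. The condensin subunits Smc2, Ncapd2 and Ncaph and the cohesin subunit Smc3 fell as well, by 1.41 ± 0.22, 1.57 ± 0.25, 1.25 ± 0.27 and 1.08 ± 0.23, the 4 called among 13 genes of both complexes, which were collected after these calls had been seen. Pcnt, the centrosome scaffold pericentrin, had 19.5 and 24.2 at 12 h, against 404 and 325 at 6 h, a difference of -3.33 ± 0.44 (adjusted p = 0.0122).

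Myc, the transcription factor that drives growth genes, was newly lost by the rule, which looks at 0, 6 and 12 h, at 229 and 70.5 at 12 h, against 517 and 433 at 6 h, with 781 and 727 at 0 h (difference -1.75 ± 0.35, adjusted p = 0.0393). Its signal had been 288 and 310.2 at 3 h, below both signals at 6 h. It was the called gene among 23 G1 cyclins, CDK inhibitors and members of the MYC network. Of the others, Cdkn2d, an inhibitor of CDK4 and CDK6, had 1486 and 3527 at 12 h, against 1031 and 1410.4 at 6 h (adjusted p = 0.0752), and Cdk4 had 598 and 1246 at 12 h, against 1127 and 1848 at 6 h (adjusted p = 0.122). Igf1r, the receptor for insulin-like growth factor, fell by 1.85 ± 0.39.

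Ribosome biogenesis, the making of ribosomal subunits in the nucleolus, held the most falls of any list by count. As a share of the genes tested, the chaperonin list held more, with 4 of 17. Of 70 tested genes 13 fell and none rose (48 and 0 at an unadjusted p under 0.05). In both experiments 63 were lower, where 4434 of all 10985 genes were, and none was higher in both. The median difference was -0.80, with -0.52 in experiment 1 and -0.93 in experiment 2. In the fit and in experiment 2 this was the lowest of the 34 functional lists, while in experiment 1 mitosis (-0.75), DNA replication (-0.69) and chaperonins (-0.66) were lower. At 6 h against 0 h 20 of the 70 were already called lower and the median was -0.76, and at 12 h 62 were lower and the median was -1.53. Npm1, nucleophosmin, had 3044 and 3761 at 12 h, against 6637 and 7044 at 6 h, with 9331 and 9579 at 0 h (difference -1.01 ± 0.16, adjusted p = 0.0216), Ncl, nucleolin, fell by 0.89 ± 0.16, and Fbl, the methyltransferase fibrillarin, had 1002 and 990.4 at 12 h, against 1836 and 2537 at 6 h (difference -1.10 ± 0.18). Dkc1, Gar1 and Nhp2, 3 of the proteins that guide pseudouridylation of rRNA, fell by 1.50 ± 0.25, 1.42 ± 0.22 and 0.97 ± 0.20. Rrp12, which takes part in the export of subunits, had 5.99 and 3.22 at 12 h, against 137 and 46.6 at 6 h, and a difference of -2.25 ± 0.44. Ftsj3, Wdr12, Wdr36, Bop1, Emg1 and Pno1 complete the 13, with differences between -1.96 and -0.79. At 24 h the list median against 0 h was -1.18.

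Among the ribosomal proteins themselves there was 1 call. Of 79 cytosolic ribosomal proteins listed only 43 were tested, so the values do not cover the whole list. None of the 43 was called (1 lower and 0 higher at an unadjusted p under 0.05), and the median was -0.10 under the main scaling and -0.28 after quantile normalization. Rpl4 had 15244 and 24999.5 at 12 h, against 22259 and 27749.6 at 6 h and Rpl8 had 9705 and 15685 at 12 h, against 16089 and 21334 at 6 h (adjusted p = 0.433 and 0.227). Of 75 mitochondrial ribosomal proteins 1 fell, where 1.4% of all genes did, so this call is near the share over all genes. It was Mrps27, at 72.8 and 89.0 at 12 h, against 215 and 219.8 at 6 h. The list median was -0.23, and -0.15 after quantile normalization. Translation factors lost Eif3a, the scaffold of initiation factor 3, at 3874 and 2561 at 12 h, against 5965 and 5203 at 6 h (difference -0.82 ± 0.16), and Eef1d, of the elongation factor 1 complex, at 1407 and 1419.7 at 12 h, against 2565 and 3117 at 6 h (difference -0.99 ± 0.21), out of 45 tested with a median of -0.19.

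Falls were found among the enzymes that charge tRNA. Of 35 tested tRNA synthetases and partners 5 fell, none rose (18 and 1 at an unadjusted p under 0.05), and the median was -0.56. Vars, for valine, had 28.6 and 24.1 at 12 h, against 226 and 399 at 6 h (difference -2.91 ± 0.37, adjusted p = 0.0122), Iars, for isoleucine, had 293 and 270.0 at 12 h, against 741 and 1068 at 6 h (difference -1.61 ± 0.32), and Farsb, the beta chain for phenylalanine, had 517 and 890.1 at 12 h, against 1193 and 1979.5 at 6 h (difference -1.16 ± 0.17). All 3 tested probe sets of Farsb were called. The mitochondrial Nars2 and the scaffold protein Eef1e1 fell by 1.48 ± 0.26 and 0.98 ± 0.18. Chaperonins fold actin and tubulin in the cytosol and many proteins in mitochondria. Their list, which also holds Hspa9, had 4 falls and no rise among 17 tested (12 and 0 at an unadjusted p under 0.05). None of the 17 had been called at 6 h against 0 h. Cct5 had 2511 and 2102 at 12 h, against 4523 and 4863 at 6 h (difference -1.02 ± 0.16), Cct4 had 3378 and 4156 at 12 h, against 6349.7 and 6989 at 6 h and Cct8 had 2177 and 2525 at 12 h, against 3861 and 4398 at 6 h. Hspa9, the mitochondrial HSP70, fell by 0.85 ± 0.15, while Hspd1, or HSP60, had 2510.2 and 2437 at 12 h, against 4733 and 6561 at 6 h and did not pass (adjusted p = 0.0601). The list median was -0.66, and -0.66 and -0.63 in experiments 1 and 2.

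Promoters of 2 falling genes are shown because an E-box with the letters CACGTG, the site known to be bound by MYC with its partner MAX, stands beside their starts. They are from the same table, build and window as above, with CACGTG in capitals. In Nme1, a nucleoside diphosphate kinase (chr11:93968223-93968522, minus strand), it began 18 bases before the start, and in Prmt3, a methyltransferase of ribosomal protein S2 (chr7:49778108-49778407, plus strand), 13 bases before it.
Nme1: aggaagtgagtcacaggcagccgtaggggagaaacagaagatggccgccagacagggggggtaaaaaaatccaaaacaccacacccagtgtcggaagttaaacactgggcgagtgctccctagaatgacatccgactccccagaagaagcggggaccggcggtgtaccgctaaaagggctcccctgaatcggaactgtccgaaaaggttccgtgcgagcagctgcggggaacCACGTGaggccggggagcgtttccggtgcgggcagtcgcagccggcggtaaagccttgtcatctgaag
Prmt3: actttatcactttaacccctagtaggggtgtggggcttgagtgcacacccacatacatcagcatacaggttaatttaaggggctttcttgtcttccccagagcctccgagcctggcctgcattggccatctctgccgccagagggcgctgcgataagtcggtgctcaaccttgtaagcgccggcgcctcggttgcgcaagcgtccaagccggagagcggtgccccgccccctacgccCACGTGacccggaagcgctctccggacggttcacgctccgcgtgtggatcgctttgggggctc
Nme1 had 936 and 1231 at 12 h, against 3053 and 4102 at 6 h (difference -1.71 ± 0.21) and Prmt3 had 118 and 50.5 at 12 h, against 493 and 365 at 6 h (difference -2.22 ± 0.29). Nme1 was a further fall and Prmt3 newly lost. The letters were in 15 of 125 promoters of genes that fell (12.0%) and in 9 of 70 of genes that rose (12.9%), against 10.3% of promoters of genes tested and 7.24% of all promoters in the table. By class they were in 6 of 28 further falls (21.4%), 9 of 97 newly lost (9.28%), 5 of 31 newly gained (16.1%) and 4 of 39 further rises (10.3%).

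Mitochondrial energy genes held 1 call, where 1.4% of all genes were called lower. Of 70 tested genes of oxidative phosphorylation none was called, with a median of -0.06 under the main scaling and -0.20 after quantile normalization. At an unadjusted p under 0.05 in limma 5 were lower and 0 higher, where 1340 and 740 of all 10985 genes were. Of 23 genes of the tricarboxylic acid cycle and itaconate 1 fell, Fh1, fumarate hydratase, at 757 and 1059.5 at 12 h, against 1909 and 2229 at 6 h (difference -1.19 ± 0.18). The median there was -0.29, and 20 of 23 were lower in both experiments, where 4434 of all 10985 genes were. Among 22 oxidative stress genes Gclm, which limits glutathione synthesis, and Mt2, metallothionein 2, fell by 1.00 ± 0.17 and 0.78 ± 0.15, and the list median was -0.10. Sterol and fatty acid synthesis had no call among 29 genes, with a median of -0.35. At the same unadjusted limit 4 of them were lower and 0 higher, beside the counts over all genes just given. Cyp51, a demethylase of the sterol pathway, was the nearest, at 275 and 444 at 12 h, against 579.9 and 1196 at 6 h (adjusted p = 0.054).

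Among regulators of chromatin and of daily rhythm few genes were called. Among 48 histone-modifying enzymes Hdac2, a deacetylase, and Prmt5, an arginine methyltransferase, fell by 1.08 ± 0.20 and 1.25 ± 0.23, and the median was -0.02, and 0.06 after quantile normalization. Among 15 circadian clock genes none was called (5 higher and 0 lower at an unadjusted p under 0.05), with a median of 0.42 and with Per2 at 483 and 374 at 12 h, against 149 and 201 at 6 h (adjusted p = 0.0661). Coro1a, the actin-binding protein of leukocytes, was newly lost at 3865 and 4243 at 12 h, against 9257 and 10933 at 6 h (difference -1.31 ± 0.20), with 2 of its 3 probe sets called. It was the called gene among 38 for actin and motility, where 1.4% of all genes were called lower. The median of that list was 0.05, and -0.09 after quantile normalization.

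Outside the lists, Pald1, which encodes paladin, had the widest fall, at 8.12 and 14.9 at 12 h, against 169.9 and 451 at 6 h, with 1582 and 1035 at 0 h (difference -3.43 ± 0.47, adjusted p = 0.0132). Dcps, the scavenger enzyme that clears caps left by mRNA decay, had 25.7 and 42.4 at 12 h, against 224 and 305 at 6 h (difference -2.49 ± 0.26), and Tacc2, a coiled-coil protein of the mitotic spindle, had 177 and 19.3 at 12 h, against 731 and 265 at 6 h (difference -2.47 ± 0.29). Lrr1, a substrate adaptor of a ubiquitin ligase, had 32.5 and 2.71 at 12 h, against 158 and 174 at 6 h, and Stxbp4, a syntaxin-binding protein, had 5.07 and 16.4 at 12 h, against 67.4 and 186 at 6 h. Of the 154 falling genes 10 had a 12 h signal under 16 and 4 had both under it, and no detection calls were analysed here, so such signals may not differ from background and the fold is least certain for them. Srsf3, a splicing factor, had 2323 and 1688 at 12 h, against 7051 and 5934 at 6 h (difference -1.70 ± 0.18, adjusted p = 0.0095). The RNA exosome trims rRNA precursors and decays RNA, and it was listed after its values had been seen. Of its 10 tested genes 2 fell, Exosc7 and Exosc8, and the median was -0.66. In both experiments 9 of 10 were lower, where 4434 of all 10985 genes were.

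The lists of early regulators held no call. Among 25 immediate early genes and MAPK phosphatases 1 was higher and 2 were lower at an unadjusted p under 0.05 in limma, and the experiments went apart, with medians of 0.24 in experiment 1 and -0.39 in experiment 2. Among 12 SOCS genes and other inhibitors of cytokine signals these counts were 1 and 2, and for 25 DC and myeloid transcription factors 1 and 3, with medians of 0.02 and 0.07, and 0.05 and 0.01 after quantile normalization. The 9 tested reference genes, which serve as loading controls, had a median of -0.05 under the main scaling and -0.22 after quantile normalization.

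**Figure D5:**
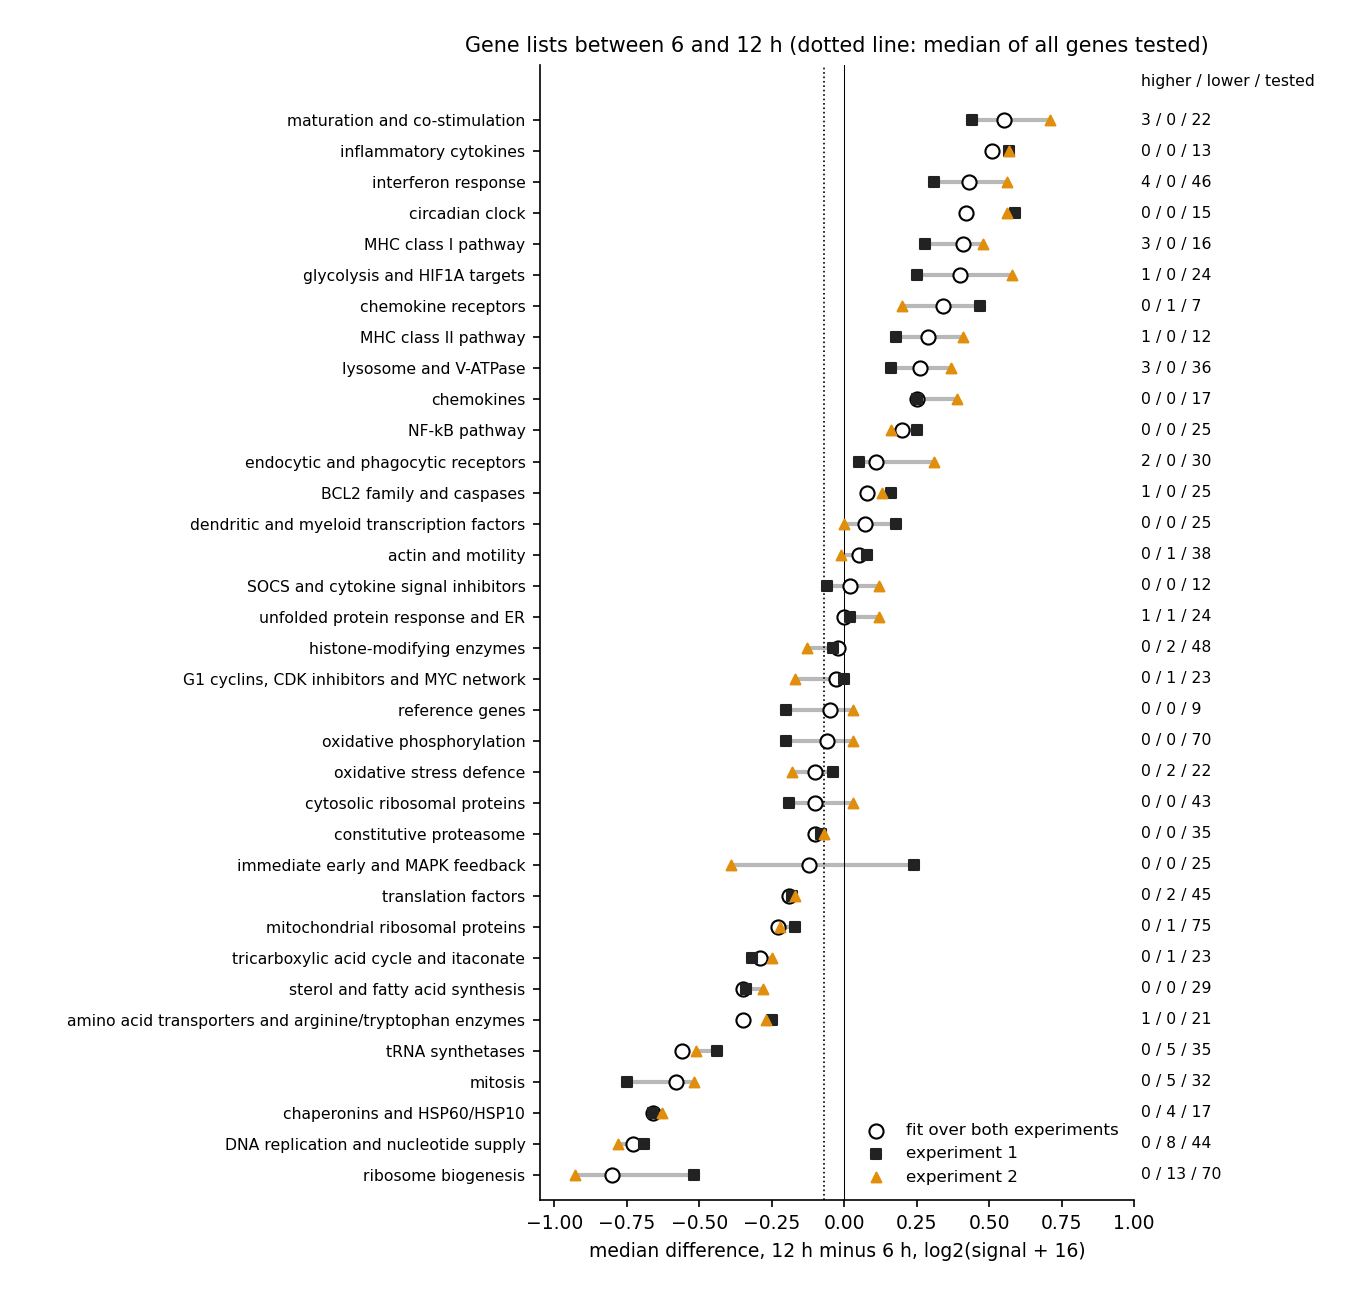
Median difference between 12 h and 6 h on the log2(signal + 16) scale for each of 34 functional gene lists and the reference genes, with open circles for the fit, black squares for experiment 1 and orange triangles for experiment 2. The numbers at the right are genes called higher, genes called lower and genes tested. Ribosome biogenesis (-0.80), DNA replication (-0.73) and chaperonins (-0.66) lie lowest, maturation (0.55) highest, and the dotted line marks the median of all genes (-0.07).

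The cells carried the DC and myeloid markers of their label at both times. Itgax, which encodes CD11c, had 19303 and 24684 at 12 h, against 18481 and 20436 at 6 h, and none of 11 tested markers of DC and myeloid cells was called, with a median of 0.12 under the main scaling and 0.01 after quantile normalization. The summed signal of 10 neutrophil markers was 22299 and 38039 at 12 h, against 22782 and 31196 at 6 h, and that of 10 erythroid and platelet markers 36978 and 45363 at 12 h, against 37521 and 43118 at 6 h. Only 4 of the neutrophil and 5 of the erythroid and platelet markers passed the signal filter, and none of these was called. Of 9 macrophage markers tested 1 was called, Fcgr1, described above. The summed signal of the macrophage markers was 78094 and 101518 at 12 h, against 68386 and 72650 at 6 h. The marker lists for B cells, T and NK cells, mast cells and stromal cells summed to under 1500 signal units on each of the 4 arrays, and since 3, 1, 2 and 1 of their genes passed the signal filter, they were hardly tested. The part of other cells in the results was not tested. Array medians ran from 70.9 to 91.4 over the series, and the 3' to 5' signal ratio of Gapdh from 0.728 to 0.819, with 0.736 and 0.728 at 12 h, against 0.75 and 0.751 at 6 h.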

How the data were processed

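Bone marrow-derived DC of 2 experiments were profiled before poly(I:C) and at 5 times up to 24 h after it on Affymetrix Mouse 430 2.0 arrays. The deposited values are MAS5.0 signal intensities, which the authors scaled on each array to a trimmed mean of 500 (2% left out at each end, as computed from the files), with the experiments normalized apart. Probe sets with a mean signal of at least the median, 78.4, were tested (22519 of 45037) as log2(signal + 16) with limma 3.58.1 in R 4.3.3 (lmFit, and eBayes with an intensity trend), over all 12 arrays, with time and experiment as terms and Benjamini-Hochberg adjustment at 0.05. The replicate number marks the experiment, that is the same mouse, and deviations of same-numbered arrays correlated at 0.256 to 0.66 over 15 pairs of times. Each gene was represented by its tested probe set with the highest mean signal, over probe sets with 1 symbol (34945 of 45037; 932 had several and 9160 none), with symbols updated from Entrez identifiers through RefSeq (GRCm38.p6).

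Named genes were the 12 largest rises and 12 largest falls called with 1 sign in both experiments, the 8 largest newly gained and newly lost genes, up to 5 members of each list with the smallest p, and a set of hallmark genes. Other called genes were added after their values had been seen, where they complete a list or share a function with those above. The comparison and the gene lists were chosen with earlier results of these data known. The fit was tested on simulated data. Promoters and tables were handled with Python 3.11.15, numpy 2.4.6 and pandas 2.3.3, and figures with matplotlib 3.10.9. Alternatives were other added constants, filters, scalings and designs, and each array left out in turn. Detection calls were not used here.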

Additional observations from a re-analysis of the deposited data

How the results depend on the processing

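The counts of calls depended on the fit. The following give probe sets higher and lower, then those with at least a 2-fold difference, then genes newly gained and newly lost, where the fit with all arrays gave 137 and 254, 90 and 194, and 38 and 116. Without a signal filter they were 74 and 148, 61 and 123, and 20 and 75. With arrays centred on the median they were 72 and 106, 69 and 102, and 19 and 53. Quantile normalization gave 130 and 202, 87 and 123, and 39 and 92. Without the intensity trend they were 7 and 21, 7 and 21, and 3 and 11, and without both 1 h arrays 31 and 41, 28 and 41, and 6 and 18. Without the replicate block for the experiment all 6 counts were 0, with 2053 probe sets at an unadjusted p under 0.05 in limma. With the 4 arrays of the comparison alone, which leave 1 residual degree of freedom, they were 896 and 1368, and 278 and 485, and with no test 184 and 326 probe sets moved at least 2-fold the same way in both experiments; newly gained and lost genes were not computed for these. Added constants of 1 or 64 and the filter at 200 kept every count within 1.5 times. With 1 array left out the counts ranged from 0 to 770 and 0 to 1739, from 0 to 217 and 0 to 582, and from 0 to 218 and 0 to 561, where a lone array at 6 or 12 h was assumed to vary like those of the other times. The cause of these shifts was not tested. Of 229 named genes 18, none of them called, changed sign in at least 1 setting. The markers of T and NK cells and of stromal cells gave no value with the filter at 200.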
